A study of Mus musculus with 6 samples.

Results

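The genes examined were the transcription factor gene Srebf1 and 9 genes of enzymes that make, elongate and desaturate fatty acids. They are Acly, Acaca, Fasn, Elovl5, Elovl6, Scd1, Scd2, Fads1 and Fads2. They were chosen by function and found by symbol, 10 of the 41079 genes listed in the count and FPKM tables, and all 10 had enough counts to be among the 14618 genes tested. RNA came from cultured primary microglia of C57Bl/6N pups aged 1 to 3 days in 6 libraries, 3 per condition. Control cultures were kept in serum-free DMEM/F12. Optimized cultures received the human cytokines hTGF-β1, hIL-34 and hCX3CL1 at 100 ng/mL each according to the labels. The study's methods add cholesterol, an insulin-transferrin-selenium solution and a collagen IV coating. In both conditions the cells had been expanded from several pooled brains per flask with L-929 conditioned medium, harvested by shaking, and allowed to adhere in serum-containing medium before the medium was replaced. The supplements were given together, so their contributions cannot be told apart.

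Fatty acid synthesis starts in the cytosol, where ATP citrate lyase (Acly) releases acetyl-CoA from citrate, acetyl-CoA carboxylase 1 (Acaca) converts it to malonyl-CoA, and fatty acid synthase (Fasn) assembles palmitate. Elovl6 lengthens the saturated product, and the stearoyl-CoA desaturases Scd1 and Scd2 insert the first double bond, which yields monounsaturated fatty acids. Essential fatty acids from the diet or medium take a separate route to long polyunsaturated fatty acids, in which Fads2 and Fads1 insert double bonds before and after a step of elongation by Elovl5. SREBP1, the product of Srebf1, is held in the endoplasmic reticulum as a precursor, is cleaved to a nuclear form, and activates many of these genes. Insulin and the oxysterol receptor LXR are known to raise its transcription.

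The count totals lay between 20628148 and 27261839 per library. Microglial identity genes were abundant, 7 markers (Csf1r, Cx3cr1, C1qa, C1qb, Itgam, Aif1 and P2ry12) summing to between 8001 and 8946 CPM in control and between 8786 and 12047 CPM in optimized libraries. The sum covers opposite changes. By the edgeR test described below, Cx3cr1, Itgam and P2ry12 were called higher in optimized cultures. Csf1r (log2 fold change -0.39) and Aif1 (-0.45) were called lower, and C1qa and C1qb were not called. Markers of other cells were low. The 6 oligodendrocyte lineage markers summed to 135 to 151 CPM in control and 164 to 202 CPM in optimized libraries, and the 5 astrocyte markers to 28.5 to 30.1 and 13.9 to 17.3 CPM. The 6 fibroblast markers reached 151 CPM in optimized library 3 and were between 31.0 and 48.8 CPM in the others. Neuronal markers stayed at or below 2.71 CPM and adipocyte markers at or below 0.284 CPM, with Cidec at 0 counts in every library. The part of these other cells in the results was not tested.

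The 10 genes did not move as a block. Levels are given as CPM, counts relative to the TMM-scaled library size, and changes as log2 fold changes of optimized against control cultures with SE and the Benjamini-Hochberg adjusted p (padj) of edgeR's quasi-likelihood test over all genes tested. At a padj of 0.05, 5 were lower in optimized cultures (Fads2, Elovl6, Scd1, Fasn and Acly), 2 were higher (Acaca and Scd2) and 3 did not pass (Srebf1, Fads1 and Elovl5). Across all genes tested, 29.8% were called, 14.7% higher and 15.2% lower. The libraries of the conditions did not overlap in 8 of the 10 genes, against 43.9% of all genes tested. Every optimized library was above every control library in 2 of them (21.4% of all genes tested) and below in 6 (22.5%). The median log2 fold change of the 10 genes was -0.28, beside 0.01 for all genes tested, and the values ran from -2.02 for Fads2 to 0.63 for Acaca. In bulk RNA, fewer cells of a type and less RNA per cell cannot be told apart. With library totals in place of TMM factors, the log2 fold changes of all genes shifted by -0.13 at the median. The 7 calls were made in the same direction under that scaling too, while the small values of Srebf1 and Fads1 changed sign.

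**Figure D1:**
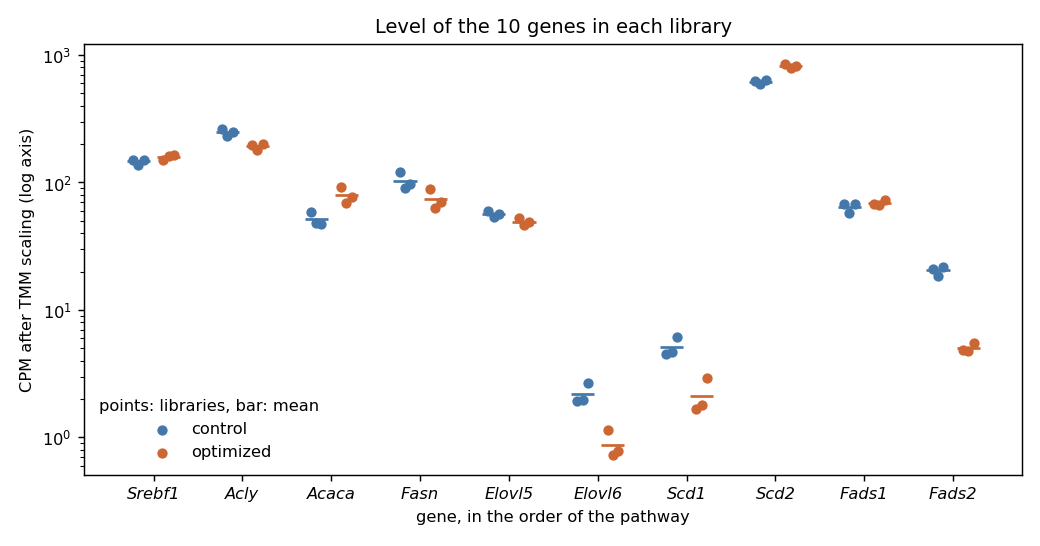
Level of each of the 10 genes in CPM after TMM scaling, on a log axis, with a point per library (3 control, 3 optimized) and a bar at the mean. Scd2 sits between 597 and 857 CPM and Elovl6 between 0.724 and 2.67 CPM, and the largest gap between the conditions is that of Fads2.

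Per length, as FPKM (counts scaled by gene length and library depth), the desaturase Scd2 was the most abundant of the 10 genes and Elovl6 the least abundant in each of the 6 libraries. In control cultures the FPKM means were 115 ± 3.20 for Scd2, 31.9 ± 2.26 for Acly, 30.3 ± 1.25 for Srebf1, 18.4 ± 1.47 for Fads1, 18.3 ± 1.19 for Elovl5 and 10.03 ± 1.76 for Fasn (SD, n = 3 each). They were 7.14 ± 0.445 for Fads2, 4.92 ± 0.727 for Acaca, 1.06 ± 0.140 for Scd1 and 0.371 ± 0.0571 for Elovl6 (SD, n = 3 each). Among control libraries the ranges of the neighbours Acly and Srebf1 overlapped, although Acly was above Srebf1 within each library, and the order of Fads1 and Elovl5 differed between libraries. In optimized cultures the order changed in the middle. Srebf1 (29.9 ± 1.37 FPKM) stood above Acly (22.7 ± 2.07 FPKM) in every optimized library, and Acaca (6.92 ± 1.31 FPKM) above Fasn (6.62 ± 1.42 FPKM) within each library, although the ranges of those last genes overlapped. Among the 16498 genes with a value above 0 in every library, Scd2 ranked 489 by mean FPKM in control and 361 in optimized cultures.

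Srebf1, on chromosome 11 of GRCm39 from 60089913 to 60113407, encodes the regulator of the group and was at 150.2, 138 and 151 CPM in control libraries 1 to 3 and at 149.7, 163 and 165 CPM in optimized libraries 1 to 3. The conditions overlapped. The change was 0.12 (95% interval -0.06 to 0.31, edgeR padj 0.32), which does not show equal levels. Counts per gene do not separate the isoforms SREBP-1a and SREBP-1c, which start at different promoters. Exons of Srebf1 share 114 bases with those of Rai1 on the other strand, and the strand setting of the counting is not given in the sources used here. The paralog Srebf2, whose product activates cholesterol synthesis genes, was at 149 ± 9.52 CPM in controls and 79.9 ± 1.65 CPM under optimized conditions (mean ± SD), a change of -0.89 ± 0.08 (SE, edgeR padj 2.6e-05). Within each library, the FPKM ratio of Srebf1 to Srebf2 was 1.07, 1.12 and 1.15 in control and 2.14, 2.25 and 2.37 in optimized cultures.

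Acly, on chromosome 11 from 100367165 to 100440756, had 262, 229.5 and 249 CPM in control and 198, 181 and 199 CPM in optimized libraries. Each optimized library was below each control library. Acly thus fell by 0.36 ± 0.09 on the log2 scale (SE, edgeR padj 0.011). Without control replicate 1 the change was -0.32 (edgeR padj 0.058).

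Acaca, on chromosome 11 from 84020476 to 84292477, went the other way. Its levels were 58.9, 48.3 and 47.2 CPM in control and 92.8, 69.0 and 76.8 CPM in optimized libraries, with no overlap, a rise of 0.63 ± 0.13 on the log2 scale (SE, edgeR padj 0.0045). Library 1 was the highest of the 3 in both conditions. On log2(FPKM + 1) the change was 0.41 and was not called by limma (adjusted p = 0.15, and between 0.060 and 0.15 in the 3 limma fits).

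Fasn, on chromosome 11 from 120696672 to 120715995, carries out the next step and had 121, 89.7 and 97.5 CPM in control and 89.3, 63.6 and 70.6 CPM in optimized libraries. All optimized libraries lay below all control libraries, optimized library 1 only just. Fasn fell by 0.47 ± 0.15 on the log2 scale (SE, edgeR padj 0.038). The call was lost in 6 of the 15 alternatives, always with the same sign. Among them were the edgeR fits without control 1 (-0.33, padj 0.15), without control 3 (-0.51, padj 0.069), without optimized 2 (-0.37, padj 0.086) and without optimized 3 (-0.43, padj 0.12). The call was kept in the other 9, as with the replicate block (-0.47, edgeR padj 0.00094) and without optimized 1 (-0.62, edgeR padj 0.00060).

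Library 1 was the highest of its condition for both Acaca and Fasn. The FPKM ratio of Fasn to Acaca was 2.11, 1.89 and 2.11 in control libraries and 0.982, 0.941 and 0.939 in optimized libraries. Fasn was thus above Acaca per length in each control library and slightly below it in each optimized library. The difference in log2 ratio was -1.09, with SDs of 0.09 and 0.04 between replicates.

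**Figure D2:**
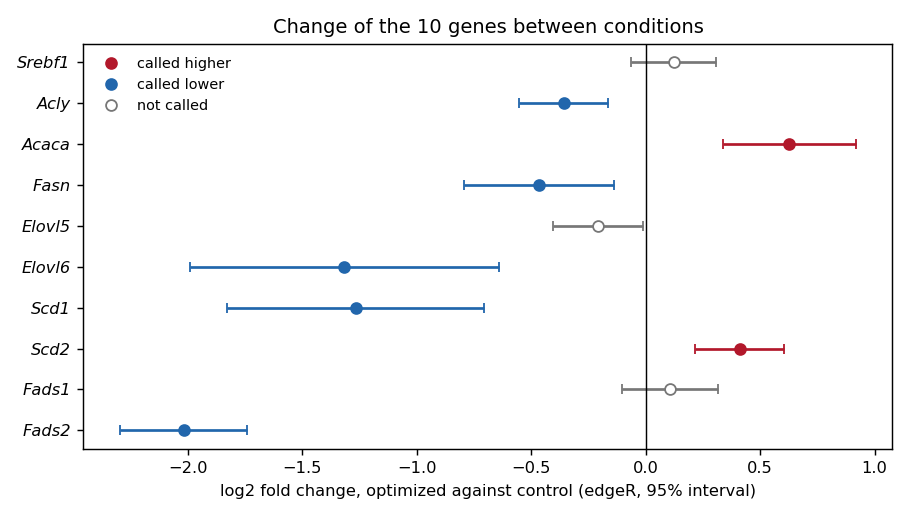
Log2 fold change of each gene between optimized and control cultures with its 95% interval from edgeR's quasi-likelihood fit, in the order of the pathway. Filled points passed an adjusted p-value of 0.05. Fads2, at -2.02, has the largest change, although its interval (-2.30 to -1.74) overlaps those of Elovl6 and Scd1. Acaca and Scd2 lie above 0, and the intervals of Srebf1 and Fads1 span 0.

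Elovl6, on chromosome 3 from 129326004 to 129432144, elongates palmitate to stearate and was the least expressed of the 10 genes. It had 44, 48 and 73 counts in control libraries and 24, 17 and 16 in optimized libraries, which is 1.92, 1.96 and 2.67 CPM against 1.14, 0.724 and 0.774 CPM. No optimized library reached the control range. Elovl6 fell by 1.32 ± 0.30 on the log2 scale (SE, edgeR padj 0.0082). Without control replicate 3 the change was -1.15 (edgeR padj 0.052).

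Elovl5, on chromosome 9 from 77818113 to 77891802, serves the polyunsaturated route. Its 60.1, 53.9 and 56.9 CPM in control and 52.7, 46.6 and 48.6 CPM in optimized libraries did not overlap, yet the change of -0.21 (95% interval -0.41 to -0.01) was not called (edgeR padj 0.11). It was called in 2 of the alternatives, without optimized replicate 1 (-0.26, edgeR padj 0.026) and by limma on log2(FPKM + 1) with a mean FPKM of at least 1 (-0.33, adjusted p = 0.037). The FPKM ratio of Elovl6 to Elovl5 within a library was 0.0170, 0.0193 and 0.0250 in control and 0.0115, 0.00827 and 0.00848 in optimized cultures.

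The stearoyl-CoA desaturases Scd1 and Scd2 lie 87590 bases apart on chromosome 19, with Scd4 between them, and changed in opposite directions. Scd1, from 44382894 to 44399154, was covered by 103, 114 and 166 counts in the controls and by 35, 42 and 60 counts after optimization, or 4.50, 4.65 and 6.08 CPM against 1.66, 1.79 and 2.90 CPM. The groups were separate, and Scd1 fell by 1.27 ± 0.25 on the log2 scale (SE, edgeR padj 0.0037). Scd2, from 44281613 to 44295303, was far more abundant, with 627, 597 and 634 CPM in control and 857, 793 and 819.6 CPM in optimized libraries. Each optimized library exceeded each control library, and Scd2 rose by 0.41 ± 0.09 on the log2 scale (SE, edgeR padj 0.0053). On log2(FPKM + 0.1) it was 0.27 and was not called by limma (adjusted p = 0.13). Beside this rise, the oligodendrocyte lineage markers were also higher in sum, among them Mbp, with 94.2 ± 2.92 CPM in controls and 119 ± 13.3 CPM under optimized conditions (mean ± SD of 3 libraries). Their part in the Scd2 value was not tested.

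Per library, Scd2 exceeded Scd1 in FPKM by 123, 114 and 92.5 times in control and by 459, 393 and 250.5 times in optimized cultures. The difference in log2 ratio was 1.71. Of the summed FPKM of the 4 Scd genes, Scd1 took 0.802% to 1.07% in control and 0.217% to 0.397% in optimized libraries, and Scd2 took 98.6% to 99.0% and 97.6% to 99.5%. Scd3 had 2 to 18 counts per library and was not tested. Scd4 had 6 to 16 counts in 5 libraries and 225 in optimized library 2, and its change of 3.08 ± 1.04 was not called (SE, edgeR padj 0.0501). It was called in 4 of 12 alternatives, with RLE factors (padj 0.0499), without a low-count filter (padj 0.0025), without optimized 1 (padj 0.0011) and without optimized 3 (padj 0.026). Without optimized library 2 it was 0.52 (padj 0.51). These genes share sequence, so their counts are uncertain. Of the stretches of 50 bases in the canonical Scd1 transcript, 2.91% also occur in that of Scd2, and the handling of reads that fit several genes is not given in the sources used here. An exon of Scd2 also holds Mir5114, whose 61 shared bases were listed with up to 1534 counts.

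The window before the canonical transcript of Scd1 is shown because this gene fell while its paralog Scd2 rose. It holds the 250 bases before the start of the GENCODE canonical transcript, chr19:44396341-44396590 on the minus strand of GRCm39, from the 5′ end and with CCAAT boxes on either strand in capitals.
Scd1: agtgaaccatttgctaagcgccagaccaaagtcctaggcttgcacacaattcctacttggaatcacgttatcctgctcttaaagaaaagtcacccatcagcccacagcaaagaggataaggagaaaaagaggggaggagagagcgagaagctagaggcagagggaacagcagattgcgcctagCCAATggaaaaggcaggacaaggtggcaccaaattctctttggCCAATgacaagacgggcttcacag
CCAAT was found from 67 to 63 and from 24 to 20 bases before the start. Of 20958 windows of the same length before canonical transcripts of protein-coding genes, 36.3% held CCAAT on either strand. The other motifs, also searched on both strands, were GGGCGG (37.1% of windows, 49.0% of those of genes tested) and CACGTG (6.34% and 7.89%). The last was TCACNCCAC, the core of the sterol regulatory element to which SREBP proteins bind (1.13% and 1.07%). None of these patterns of letters was found in this window. Elements that depart from those letters were not searched, so the lack of a match does not show that such elements are absent. The window lies inside the annotated Scd1 gene, which reaches 44399154, and other starts of the gene were not searched. A match describes letters only, and binding was not measured.

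Fads2, on chromosome 19 from 10038130 to 10079203, encodes the desaturase that opens the polyunsaturated route and showed the largest change of the 10 genes. Its counts were 481, 455 and 595 in the controls and 103, 112 and 114 under optimized conditions, that is 21.0, 18.6 and 21.8 CPM against 4.88, 4.77 and 5.51 CPM. The groups were far apart and tight. Fads2 was 4.05-fold lower, a change of -2.02 ± 0.12 on the log2 scale (SE, edgeR padj 1.8e-06), and stood at rank 195 from the bottom among the 14618 genes tested. It was called lower under each of the 15 alternatives, with values between -2.15 and -1.64. Among astrocyte markers, Aldh1l1 was lower in the same libraries, at 16.5 ± 1.47 CPM in controls against 4.64 ± 0.228 CPM (mean ± SD of 3 libraries), while Gfap was at 4.18 ± 0.788 and 4.68 ± 0.627 CPM. Their part in the Fads2 value was not tested.

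Fads1, on the same chromosome from 10160167 to 10174241, encodes the desaturase of the later step and lies 80963 bases from Fads2. It was at 67.3, 57.2 and 68.0 CPM in control and at 67.9, 66.8 and 72.4 CPM in optimized libraries, which overlapped. Its change was 0.11 (95% interval -0.10 to 0.32, edgeR padj 0.45). Fads3, 201 bases from Fads2 on the other side, was at 4.38 ± 0.365 CPM in controls and 4.54 ± 0.347 CPM under optimized conditions (mean ± SD), a change of 0.05. The FPKM ratio of Fads2 to Fads1 was 0.380, 0.395 and 0.390 in control and 0.0874, 0.0870 and 0.0928 in optimized libraries, a difference in log2 ratio of -2.13. No stretch of 50 bases was shared between the canonical transcripts of Fads1 and Fads2. 

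The windows before both canonical transcripts, chr19:10079204-10079453 on the minus strand for Fads2 and chr19:10159917-10160166 on the plus strand for Fads1 in GRCm39, are shown because this pair of desaturase genes gave such unequal values. CCAAT on either strand is in capitals.
Fads2: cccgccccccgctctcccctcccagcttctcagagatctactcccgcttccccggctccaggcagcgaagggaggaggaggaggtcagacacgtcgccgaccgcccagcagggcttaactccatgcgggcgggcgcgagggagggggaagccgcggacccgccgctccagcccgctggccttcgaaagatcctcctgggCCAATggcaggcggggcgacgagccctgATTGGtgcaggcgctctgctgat
Fads1: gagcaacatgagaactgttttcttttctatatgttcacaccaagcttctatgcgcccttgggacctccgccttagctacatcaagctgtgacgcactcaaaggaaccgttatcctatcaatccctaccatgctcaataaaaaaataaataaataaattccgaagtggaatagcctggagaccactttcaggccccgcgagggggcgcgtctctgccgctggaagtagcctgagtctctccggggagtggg
Fads2 held CCAAT from 51 to 47 bases before the start and, on the other strand, from 23 to 19, and GGGCGG at 3 places. The Fads1 window held none of the motifs searched, and elements that depart from their letters were not searched.

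**Figure D3:**
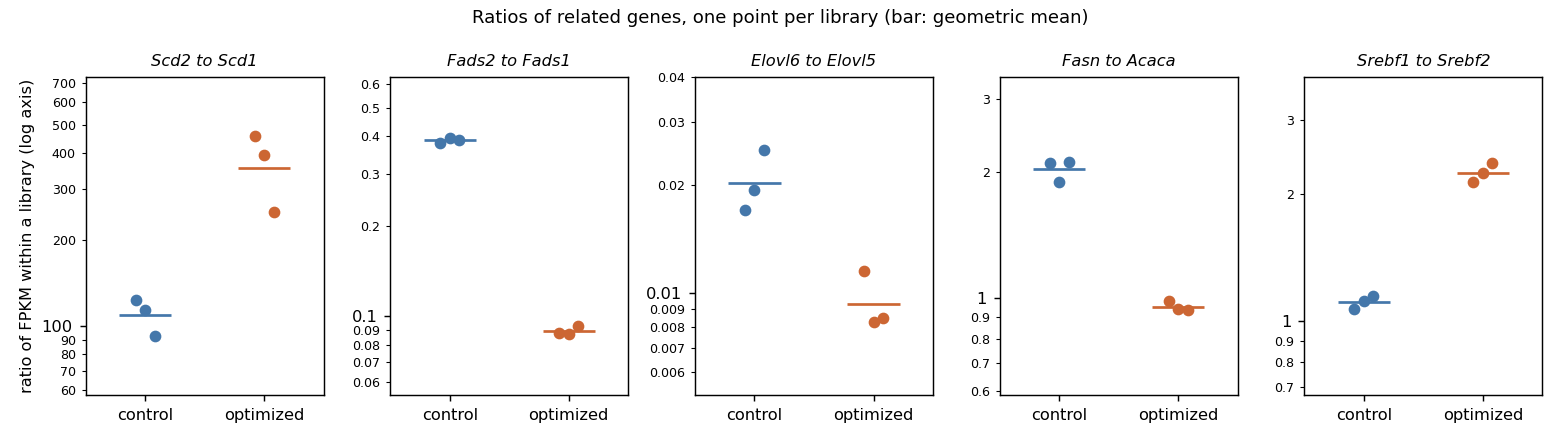
FPKM ratio of related genes within each library on log axes, with a point per library and a bar at the geometric mean of the 3. In all 5 panels the control and optimized libraries are apart, as for Fads2 to Fads1 with 0.380 to 0.395 against 0.0870 to 0.0928.

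A ratio within a library does not depend on how the libraries are scaled. In each of the 5 ratios the conditions did not overlap, and the exact two-sided permutation test gave p = 0.1 for each, also after adjustment over the 5, which is the smallest p that 3 libraries against 3 allow. The ratios of Fasn to Acaca and of Srebf1 to Srebf2 were chosen after their values had been seen.

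The genes whose levels over the 6 libraries were most like those of Fads2 were Cdca3, Timeless, Mcm5, Hk3 and Cd300ld, with Pearson's r of log2 CPM from 0.9988 to 0.9996. Cdca3, Timeless and Mcm5 belong to cell division and DNA replication, Hk3 is a hexokinase of myeloid cells and Cd300ld a myeloid surface receptor. All were lower, with log2 fold changes between -0.88 and -1.87. Such likeness mostly repeats the contrast of 2 conditions, since 942 of 10476 genes with at least 5 CPM had an r above 0.95 with Fads2.

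Other genes of the pathway were described by lists, whose shares called stand beside 29.8% of all genes tested (14.7% higher, 15.2% lower). Of 12 regulators of SREBP and lipogenic transcription, 11 were tested, 1 was higher and 4 were lower by edgeR, or 45.5% called. Their median log2 fold change was -0.12. The higher gene was Mlxipl, which encodes the carbohydrate response factor ChREBP and rose from 13.2 ± 0.839 to 82.4 ± 9.56 CPM (mean ± SD), or by 2.64 on the log2 scale. Insig1, an SREBP target whose product retains SREBP in the endoplasmic reticulum, fell by 1.70 on the log2 scale, from 102 ± 5.24 to 31.4 ± 3.03 CPM. Nr1h3, the gene of LXRα, had a log2 fold change of -1.92 from 10.3 ± 1.22 and 2.70 ± 0.444 CPM, but its exons share 256 bases with the more abundant Acp2 on the other strand. No strand setting is known for that count. Mid1ip1, an activator of acetyl-CoA carboxylase, was the remaining lower gene with -0.48.

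Of 7 genes that supply or use acetyl-CoA or supply NADPH, 6 were tested and 4 were lower (Acss2 with -1.20, G6pdx with -1.04, Pgd and Idh1 with -0.52 and -0.51), and none was higher. That is 66.7% called, against 29.8% of all genes tested. Acss2 makes acetyl-CoA from acetate, and exons of Gss, with more counts than Acss2, overlap it on the other strand. G6pdx and Pgd, the NADPH-yielding enzymes of the pentose phosphate pathway, had 261 ± 20.1 and 127 ± 2.40 CPM, and 536 ± 41.5 and 374 ± 40.7 CPM, in control and optimized cultures. Slc25a1, the mitochondrial citrate carrier that feeds Acly, was at 86.7 ± 12.5 and 86.7 ± 16.1 CPM (SD, n = 3 each). Acacb, the gene of the other acetyl-CoA carboxylase, had 2 to 15 counts per library and was not tested.

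Of 11 other genes of the elongation cycle, 8 were tested, with 1 higher and 1 lower. That is 25% called, below the 29.8% of all genes tested. Hacd2, a dehydratase of the cycle, rose by 0.85 on the log2 scale, from 38.0 ± 2.70 to 68.7 ± 7.32 CPM, and Hsd17b12, its ketoacyl reductase, had a log2 fold change of -0.41. Of 8 other desaturases and electron donors, 7 were tested, none was higher and 3 were lower, or 42.9% called. Cyb5a and Cyb5b, cytochromes that pass electrons to desaturases, had log2 fold changes of -0.99 and -0.51, and Degs1, a desaturase of sphingolipid synthesis, one of -0.43.

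Acyl-CoA synthetases and acyltransferases, which activate fatty acids and place them in lipids, gave 2 higher and 4 lower of 10 tested. That is 60% called, against 29.8% of all genes tested. Lpcat3, which inserts polyunsaturated acyl chains into phospholipids, rose from 90.2 ± 5.21 to 142 ± 21.8 CPM, a log2 fold change of 0.66, and Dgat1, a triglyceride synthesis enzyme, had one of 0.44. Acsl3, with -0.72, was the lowest, ahead of Acsl4 with -0.44, Agpat2 with -0.42 and Acsl1 with -0.33. Lpcat3 shares 4277 exon bases with Emg1 on the other strand. Acsl3, with a mean of 445 counts, shares 842 exon bases with Utp14b on the same strand, which had a mean of 122 counts.

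Set beside these, 16 genes of cholesterol synthesis and uptake had 15 tested, 13 lower and none higher, or 86.7% called. The median change on the log2 scale was -1.10 there and -0.28 for the 10 fatty acid genes. The called values there ran from -1.97 for Idi1, an isomerase of the mevalonate pathway, to -0.48 for Hmgcs1, the synthase at its entry. No test of the difference between the lists was made.

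**Figure D4:**
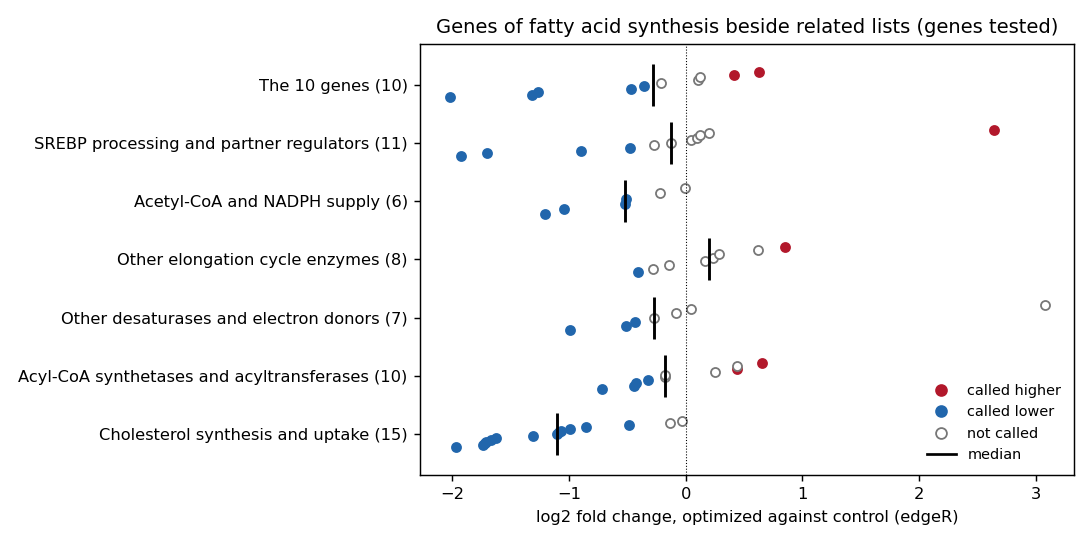
Log2 fold change of each gene tested in the 10-gene group and in 6 related lists, with the number tested in brackets and a black bar at the median. Points of the 10 genes lie on both sides of 0 with a median of -0.28, while the 15 cholesterol genes all lie below 0 with a median of -1.10. The open point at 3.08 is Scd4, whose counts were high in optimized library 2.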

How the data were processed

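Reads were paired-end. HISAT2 was used by the authors for alignment against mm39 (GRCm39), and featureCounts for counting. Versions, annotation, strand setting and the treatment of reads on several genes are not given in the sources used here. The authors deposited raw counts per gene, not normalized, and FPKM values, in which every count is scaled by 1 factor for its gene and 1 for its library. Samples and columns were matched by their labels.

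The tests used edgeR 4.0.16 under R 4.3.3 (filterByExpr, TMM factors, glmQLFit and glmQLFTest without further terms), Benjamini-Hochberg adjustment over 14618 genes and a threshold of 0.05. CPM use TMM-scaled library sizes. The standard error is the size of the log2 fold change divided by the square root of F. Values are mean ± SD. The common dispersion corresponded to a coefficient of variation of 0.128 between replicates, so genes with few counts, such as Elovl6 and Scd1, carry larger errors. The study describes the libraries as biological replicates, but the labels give only replicate numbers, so p-values measure the spread between these samples, which may be partly technical. Libraries of a condition differed by more than sampling noise (chi-square per degree of freedom up to 71.3), so each counted as 1 replicate.

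Coordinates, exon overlaps and promoter windows come from GENCODE M39 and the GRCm39 genome. Scripts were tested on simulated counts. Alternatives were RLE factors, library size alone, DESeq2 1.42.0, other count filters, a replicate block, fits that leave out a library, and limma 3.58.1 on log2(FPKM + 1) and log2(FPKM + 0.1). Fold changes on those scales understate low genes.

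The members, lists and tests were chosen with earlier results of these data known. Named genes are all 10 members and at most 4 per list, namely the called genes with the highest and lowest log2 fold change and genes tied to a member by role, plus the 5 genes most like the member with the largest change. Mid1ip1, G6pdx, Pgd, Acacb, Cyb5b, Dgat1, Acsl1, Acsl4, Agpat2, Fads3, Mbp and Aldh1l1 were added after their values were seen. Some items of the lists and some promoter windows are not reported here.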

Additional observations from a re-analysis of the deposited data

How the results depend on the processing

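The 7 calls among the 10 genes were made with the same directions under RLE factors, library size alone, DESeq2, both other count filters and the replicate block. With limma on FPKM, 1 member was called higher on log2(FPKM + 1), without and with the filter at a mean FPKM of 1. On log2(FPKM + 0.1) it was 0. All genes called higher numbered 1350 without that filter, 1175 with it and 1272 on log2(FPKM + 0.1), against 2142 by edgeR. Scd1 and Elovl6 did not pass that filter and were not tested there. FPKM carry no TMM factors. The members called lower numbered 3 to 6 when each library was left out, 3 without control replicate 1 or control replicate 3. Of all calls, 49.1% were higher with TMM, 32.3% when scaled by library size, and 28.8% with limma under the FPKM filter. Values that were not called changed sign. Srebf1 was at -0.0090 with library size alone, -0.0173 on log2(FPKM + 1) with or without the filter and -0.0179 on log2(FPKM + 0.1), and Fads1 at -0.0215, -0.0287 and -0.0301. Fads3 was at -0.0817, -0.0431 and -0.0801 and from -0.0186 to 0.107 without single libraries. Slc25a1 was at 0.0012 with RLE factors, at 0.0029 with at least 10 counts in every library and from -0.126 to 0.142 without single libraries. The 5 ratios kept their direction without each library and pair by pair. Same-numbered libraries did not deviate together throughout, with correlations of 0.27, -0.01 and 0.18, beside -0.29 to 0.19 for differently numbered ones. With 3 libraries per condition these values do not settle whether libraries were paired. The labels name no pairs, so the main tests used none. The replicate block called 2 members higher and 5 lower, and 2401 and 2523 of all genes against 2142 and 2218. Single libraries also decided calls outside the 10 genes. Dgat1 lost its call without control 1, control 3 or optimized 2, Acsl1 whenever a control was left out, Acsl4 without control 2 or optimized 3, Agpat2 whenever a control or optimized 3 was left out, and Mbp whenever a library other than optimized 1 was left out. Genes near 1 CPM, such as Elovl6, are limited by depth.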
